A study of Mus musculus with 32 samples.

Results

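The 8 genes described here code for regulators that brake, start or license the cell cycle: Wee1, Cdkn1a, Ccnd1, Ccne1, Mcm5, Gadd45a, Gadd45b and Gadd45g. They were listed by name as cell cycle genes thought to be gated by the circadian clock, and were found by symbol among the 55471 genes of the read count table. All 8 are protein coding and passed the filter on low counts. The study sampled livers of 32 male C3H/HeNCrl mice, all on a high fat diet (HFD), so no mouse on another diet is compared. The mice lived in a short light (SL) or a long light (LL) photoperiod and were sampled at Zeitgeber times (ZT) 0, 6, 12 and 18 h, with 4 mice in each of the 8 groups. The sources used here do not give the hours of light, the event that sets ZT0 or the age of the mice. Nothing in the labels says how mice were housed. The p-values set group differences against the spread between mice within groups and take the 32 animals as independent. Any effect of shared housing could not be told apart from photoperiod.

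In cells that divide, cyclins switch on cyclin-dependent kinases (CDKs), and inhibitors hold those kinases back until DNA is copied and intact. In mouse liver the circadian clock is known to set the hour at which regenerating hepatocytes enter mitosis. Wee1, whose kinase phosphorylates and restrains CDK1 before mitosis, is a textbook clock output, driven by the CLOCK and BMAL1 activators through E-box motifs. Cdkn1a codes for p21, a CDK inhibitor that p53 induces and that the clock repressor REV-ERB alpha lowers in mouse liver. Adult hepatocytes mostly rest outside the cycle, so these transcripts in an unoperated liver need not mark division.

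Of the 3 Gadd45 paralogs, which code for closely related stress sensors, only Gadd45a passed for time of day in the fit reported below. Promoter stretches of the family are shown first. Each is 120 bases that end before the annotated gene, on the gene's own strand, 5′ to 3′, from RefSeq promoter windows on GRCm38.p6, with the E-box CACGTG in capitals. Gadd45a is taken from chr6:67037458-67037577 (minus strand), Gadd45b from chr10:80929849-80929968 (plus strand) and Gadd45g from chr13:51846476-51846595 (plus strand).
Gadd45a: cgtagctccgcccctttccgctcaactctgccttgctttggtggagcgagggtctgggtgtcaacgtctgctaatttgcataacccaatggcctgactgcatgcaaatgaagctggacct
Gadd45b: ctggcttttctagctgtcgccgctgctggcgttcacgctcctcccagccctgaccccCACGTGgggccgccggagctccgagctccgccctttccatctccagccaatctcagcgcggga
Gadd45g: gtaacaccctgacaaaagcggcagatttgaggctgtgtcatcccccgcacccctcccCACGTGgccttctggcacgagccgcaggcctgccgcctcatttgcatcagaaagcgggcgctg

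The search covered the 250 bases before each RefSeq start on both strands for the E-box CACGTG, for the D-box TTATGTAA and for AGGTCA, the core of the element that REV-ERB receptors bind. No 2 matches in these genes overlapped. RefSeq windows were at hand for 6 of the 8 genes, those other than Wee1 and Ccnd1. Gadd45b held 1 E-box, whose first base lay 185 bases before the start, and Gadd45g held 1 at 142 bases before the start. The same letters occur in 6.02% of the 32851 windows of the table. The windows of Cdkn1a, Ccne1, Mcm5 and Gadd45a held no CACGTG, and none of the 6 genes' windows held TTATGTAA (0.819% of all windows) or AGGTCA (14% of all windows). A match is a description of these letters, not a binding site.

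Libraries held between 9095615 and 27462776 reads in genes. Replicate 3 of LL at ZT12 stood apart, with a mean correlation of 0.969 with the rest of its group, where the other libraries had 0.981 to 0.989. That library also had the highest summed level of cholangiocyte markers (63.5 CPM, reads scaled to a common library size, against 30.9 CPM in the lowest library). Its sums of sinusoidal endothelial markers (245 CPM) and stellate cell markers (176 CPM) were the lowest, against 376 and 281 CPM in the highest libraries. The part of these in its values was not tested. Hepatocyte markers were abundant throughout, with the 7 of them summing to between 111000 and 143000 CPM. In bulk tissue, fewer cells of a type and less RNA per cell cannot be told apart.

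Per base of exon, Gadd45g (4.9 reads per kilobase of exon, scaled for depth (RPKM), as a mean over 32 libraries), Wee1 (4.16 RPKM), Cdkn1a (3.71 RPKM), Ccnd1 (3.0 RPKM) and Gadd45a (2.91 RPKM) were the members with higher levels, as means over groups that differ widely. Mcm5 at 0.895 RPKM, Ccne1 at 0.555 RPKM and Gadd45b at 0.491 RPKM were the low members. Reads in a library numbered from 41 to 703 for Wee1 but from 1 to 52 for Gadd45b, so Gadd45b is measured far less closely.

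Wee1 differed between SL and LL at every sampling time: in SL it was high at ZT0 and ZT6 and low at ZT18, and in LL it was high at ZT12 and ZT18 and low at ZT0 and ZT6. Wee1 (ENSMUSG00000031016) lies on chromosome 7 of GRCm38 from 110122046 to 110143286 on the plus strand. At ZT0 it stood at 23.9, 29.9, 27.5 and 27.5 CPM in SL mice, against 5.87, 4.74, 8.57 and 4.38 CPM in LL mice. At ZT6 the SL mice had 23.4, 24.2, 20.8 and 19.6 CPM, and the LL mice had 9.24, 6.67, 4.52 and 4.65 CPM. Every SL mouse lay above every LL mouse at both times. At ZT12 the values were 8.81, 9.04, 10.3 and 8.45 CPM in SL mice and 24.4, 32.5, 12.7 and 26.6 CPM in LL mice, where 12.7 CPM is the library that stood apart. By ZT18 SL mice held only 3.12, 3.33, 3.31 and 2.55 CPM, against 18.1, 15.4, 14.6 and 16.8 CPM in LL mice. Every SL mouse lay below every LL mouse at both of these later times.

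The fitted log2 difference of Wee1, SL minus LL, was 2.24 (SE 0.22) at ZT0, 1.86 (SE 0.21) at ZT6, −1.39 (SE 0.21) at ZT12 and −2.40 (SE 0.23) at ZT18. All 4 passed edgeR's quasi-likelihood F-test, with Benjamini-Hochberg adjusted p of 1.65e-08, 2.36e-07, 1.87e-05 and 2.93e-08 in that order of times. Within SL the highest group mean of Wee1 was 8.84 times the lowest, and within LL it was 4.08 times. The order of Wee1 in SL was ZT0, ZT6, ZT12 and ZT18 from high to low, with overlap only between ZT0 and ZT6. In LL, ZT12 and ZT18 overlapped, as did ZT6 and ZT0, and every mouse of the high pair lay above every mouse of the low pair. Without the library that stood apart, Wee1 in LL at ZT12 averaged 27.8 ± 4.17 CPM (SD, n = 3), against 24 ± 8.31 CPM with it (SD, n = 4).

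**Figure D1:**
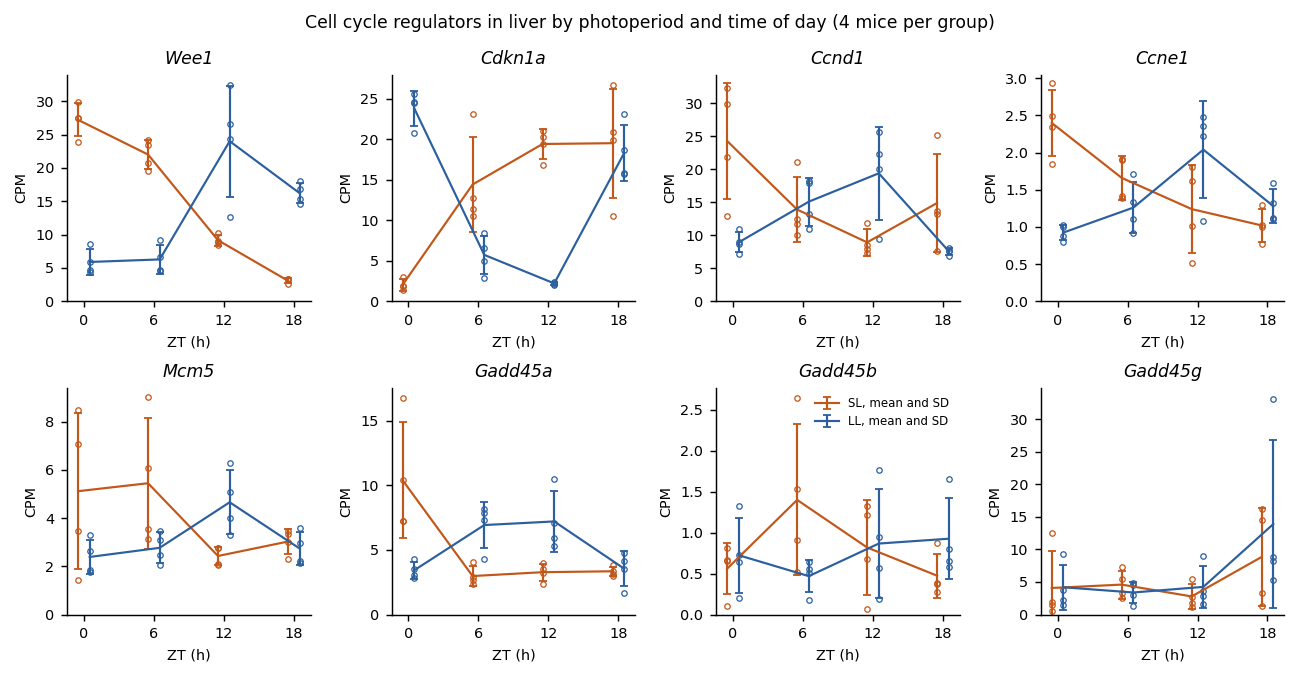
CPM of the 8 genes against ZT (h), SL in orange left of LL in blue; open points are mice, lines and bars are means and SD (n = 4 per group). Wee1 crosses between ZT6 and ZT12, from SL above LL to SL below LL, and Cdkn1a is lowest in SL at ZT0 and in LL at ZT12.

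Cdkn1a was low at the times when Wee1 was highest, ZT0 in SL and ZT12 in LL. It (ENSMUSG00000023067) lies on chromosome 17 from 29090976 to 29100727 on the plus strand. At ZT0 it had 1.34, 1.94, 1.83 and 3.02 CPM in SL mice, against 24.6, 20.7, 24.4 and 25.6 CPM in LL mice. At ZT12 the picture was turned round, with 21, 16.8, 19.4 and 20.3 CPM in SL mice and 2.4, 1.97, 2.17 and 2.27 CPM in LL mice. The groups did not come near each other at either time. At ZT6 SL mice had 12.7, 11.4, 23.1 and 10.5 CPM, against 2.84, 8.48, 6.53 and 5.02 CPM in LL mice, again without overlap. At ZT18 SL mice had 10.5, 20.9, 19.9 and 26.7 CPM and LL mice had 15.7, 23.1, 18.6 and 15.8 CPM, and the groups overlapped.

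The log2 difference of Cdkn1a, SL minus LL, was −3.60 (SE 0.31, adjusted p = 9.58e-10) at ZT0, which is 0.0826 times the LL level. It was 1.31 (SE 0.26, adjusted p = 0.000473) at ZT6 and 3.13 (SE 0.29, adjusted p = 3.5e-09) at ZT12, an 8.75-fold higher level in SL. At ZT18 it was 0.09 (SE 0.24) and did not pass (adjusted p = 0.888). The highest group mean of Cdkn1a was 9.6 times the lowest within SL, and 10.8 times within LL. In SL it stayed high over 3 sampling times, with overlap between ZT6 and ZT12 and between ZT12 and ZT18. In LL it was high at ZT0 and ZT18, which overlapped, with ZT6 below them and ZT12 lowest.

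Ccnd1 codes for cyclin D1, which partners CDK4 and CDK6 early in G1. It (ENSMUSG00000070348) lies on chromosome 7 from 144929931 to 144939925 on the minus strand. At ZT0 it had 21.8, 13, 29.9 and 32.4 CPM in SL mice, against 10.9, 7.2, 8.68 and 9.03 CPM in LL mice, without overlap. At ZT6 it had 21.1, 11.7, 10.1 and 12.5 CPM in SL mice and 13.2, 18.2, 10.9 and 18.0 CPM in LL mice. At ZT12 SL mice had 8.55, 7.87, 7.38 and 11.9 CPM, against 20.1, 25.7, 9.39 and 22.3 CPM in LL mice. The value of 9.39 CPM, again the LL library that stood apart, lay within the SL range. At ZT18 the SL mice had 7.55, 25.2, 13.7 and 13.3 CPM, against 7.69, 8.12, 7.6 and 6.92 CPM in LL mice, so 3 SL mice were above all LL mice and 1 was among them.

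Ccnd1 differed by a log2 SL minus LL of 1.45 (SE 0.31, adjusted p = 0.00192) at ZT0, −0.13 (SE 0.30, adjusted p = 0.838) at ZT6 and −1.11 (SE 0.31, adjusted p = 0.016) at ZT12. At ZT18 it was 0.99 (SE 0.32, adjusted p = 0.0447), and without SL replicate 2 at that time, the mouse at 25.2 CPM, it was 0.60 with an adjusted p of 0.30. The call at ZT12 was lost without SL replicate 3 (adjusted p = 0.0585) or LL replicate 2 (adjusted p = 0.0565) of that time. Without the library that stood apart, Ccnd1 in LL at ZT12 averaged 22.7 ± 2.82 CPM (SD, n = 3).

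Ccne1 codes for cyclin E1, which with CDK2 carries cells from G1 into S phase. It (ENSMUSG00000002068) lies on chromosome 7 from 38097984 to 38107534 on the minus strand. At ZT0 it had 2.35, 1.84, 2.49 and 2.93 CPM in SL mice, against 1.03, 0.995, 0.879 and 0.797 CPM in LL mice, and every SL mouse was above every LL mouse. At ZT6 it had 1.9, 1.39, 1.92 and 1.42 CPM in SL mice and 1.1, 1.71, 1.33 and 0.913 CPM in LL mice. At ZT12 SL mice had 1.81, 1.01, 0.518 and 1.62 CPM, against 1.08, 2.36, 2.48 and 2.23 CPM in LL mice. At ZT18 the groups again overlapped, with 0.766, 1.3, 1.03 and 0.993 CPM in SL mice and 1.11, 1.32, 1.59 and 1.12 CPM in LL mice. Ccne1 was called at ZT0, where it was higher in SL with a log2 difference of 1.37 (SE 0.29, adjusted p = 0.00164). It was −0.75 (SE 0.27, adjusted p = 0.0709) at ZT12, and its values at ZT6 (0.39) and ZT18 (−0.31) did not pass either.

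Mcm5 codes for a subunit of the MCM helicase, which is loaded on replication origins before S phase. It (ENSMUSG00000005410) lies on chromosome 8 from 75109569 to 75128439 on the plus strand. At ZT0 SL mice spread widely, with 3.47, 1.43, 8.5 and 7.08 CPM, against 3.3, 1.76, 2.64 and 1.86 CPM in LL mice. At ZT6 the values were 9.03, 3.12, 6.09 and 3.55 CPM in SL mice and 2.47, 3.47, 2.05 and 3.1 CPM in LL mice. At ZT12 SL mice had 2.76, 2.1, 2.07 and 2.77 CPM, all below the 3.99, 6.3, 3.29 and 5.07 CPM of LL mice. At ZT18 the groups overlapped, with 2.3, 3.47, 3.01 and 3.35 CPM in SL mice and 2.15, 3.59, 2.97 and 2.24 CPM in LL mice.

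Mcm5 passed at ZT0 with a log2 difference of 1.13 (SE 0.37, adjusted p = 0.0441), a call close to the threshold. Without SL replicate 3 at ZT0 it was 0.76 with an adjusted p of 0.238. Its values of 0.97 at ZT6 (SE 0.34, adjusted p = 0.0507) and −0.94 at ZT12 (SE 0.36, adjusted p = 0.0832) did not pass. Both lay near the threshold: DESeq2 called Mcm5 at ZT6 (adjusted p = 0.0327), and a fit of the compared groups only called it at ZT12 (adjusted p = 0.0392). The SL mice at ZT0 with the higher Mcm5, replicates 3 and 4, had summed Kupffer cell markers of 265 and 410 CPM, against 230 and 208 CPM in replicates 1 and 2. Their summed stellate cell markers were 281 and 262 CPM, against 237 and 244 CPM in replicates 1 and 2. Sums of erythroid markers (399 and 370 CPM, against 334 and 310 CPM) and cholangiocyte markers (38.1 and 34.9 CPM, against 30.9 and 34.6 CPM) ran the same way. Those of the remaining marker lists did not, such as sinusoidal endothelial markers with 297 and 316 CPM, against 300 and 330 CPM. All 7 Kupffer cell and all 6 stellate cell markers were detected, over all libraries their sums ranged from 190 to 410 CPM and from 176 to 281 CPM, and their part in the result was not tested.

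The Gadd45 genes code for small proteins that bind p21, PCNA and stress-activated MAP kinase kinase kinases after DNA damage or stress. Gadd45a (ENSMUSG00000036390) is a p53 target on chromosome 6 from 67035096 to 67037457 on the minus strand. Its means were high at ZT0 in SL and at ZT6 and ZT12 in LL. With samples 6 h apart, the width of a peak was not measured. At ZT0 it had 7.21, 16.8, 7.25 and 10.4 CPM in SL mice, against 3.52, 2.81, 3.08 and 4.32 CPM in LL mice. At ZT6 SL mice had 2.88, 4.09, 2.64 and 2.33 CPM, against 7.32, 7.88, 4.31 and 8.21 CPM in LL mice. At ZT12 the values were 3.97, 3.51, 2.4 and 3.25 CPM in SL mice and 5.95, 5.29, 10.5 and 7.08 CPM in LL mice. SL and LL mice did not overlap at any of these 3 times, with SL above LL at ZT0 and below it at ZT6 and ZT12. At ZT18 they overlapped, with 3.83, 2.99, 3.16 and 3.41 CPM in SL mice and 4.8, 1.68, 4.14 and 3.56 CPM in LL mice.

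The log2 difference of Gadd45a, SL minus LL, was 1.57 (SE 0.28, adjusted p = 0.000237) at ZT0, −1.22 (SE 0.28, adjusted p = 0.00255) at ZT6 and −1.16 (SE 0.28, adjusted p = 0.00555) at ZT12. At ZT18 it was −0.09 and did not pass (adjusted p = 0.911). In SL, ZT0 stood clear of all other times, which overlapped one another, and its mean was 3.49 times that at ZT6. The highest LL mean, at ZT12, was 2.1 times the lowest, at ZT0. Without the library that stood apart, which here was the highest at 10.5 CPM, Gadd45a in LL at ZT12 averaged 6.1 ± 0.907 CPM (SD, n = 3).

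Gadd45b and Gadd45g did not pass in any of the 4 comparisons of SL with LL. Gadd45b (ENSMUSG00000015312), on chromosome 10 from 80930073 to 80932204 on the plus strand, ranged from 0.0647 CPM in 1 SL mouse at ZT12 to 2.64 CPM in 1 SL mouse at ZT6. Its widest difference was at ZT6, with 0.524, 1.53, 0.911 and 2.64 CPM in SL mice and 0.183, 0.551, 0.502 and 0.639 CPM in LL mice (log2 difference 1.49, SE 0.59, adjusted p = 0.0863). Those groups overlapped, and Gadd45b had few reads in each.

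Gadd45g (ENSMUSG00000021453), on chromosome 13 from 51846678 to 51848468 on the plus strand, varied more between mice of 1 group than any other member. Its SD within groups on the log2 scale was 1.21, against 0.326 for Wee1 and 0.906 for Gadd45b. In SL at ZT0 it had 12.5, 1.43, 1.98 and 0.472 CPM, and in SL at ZT18 it had 1.37, 3.33, 16.2 and 14.5 CPM. In LL at ZT18 it had 8.25, 33.1, 5.25 and 8.83 CPM, all above the 1.28, 2.97, 4.85 and 4.47 CPM of LL at ZT6. Its log2 differences, SL minus LL, were 0.07, 0.39, −0.59 and −0.67 from ZT0 to ZT18 with SE of 0.69 to 0.80, so changes of the size seen in Ccnd1 could not be resolved.

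Counted over the members, 6 of 8 were called at ZT0 (5 higher and 1 lower in SL), where 11% of all 14456 tested genes were called, 6.07% higher and 4.97% lower. At ZT6 it was 3 of 8 (2 higher, 1 lower), against 15.3% of all genes (6.90% higher, 8.38% lower). At ZT12 it was 4 of 8 (1 higher, 3 lower), against 12.4% (6.05% higher, 6.40% lower). At ZT18 the count was 2 of 8 (1 higher, 1 lower), against 9.21% (4.82% higher, 4.39% lower). CPM values of SL and LL mice did not overlap for 5 members at ZT0, 3 at ZT6, 4 at ZT12 and 1 at ZT18, where 16.7%, 20.4%, 14.4% and 17.5% of all genes did not overlap at those times. Mcm5 was called at ZT0 with overlap and was without overlap but not called at ZT12. The 8 members were chosen with earlier results of these data known. Counts of members beside the share of all genes, here and below, therefore do not test for an excess.

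**Figure D2:**
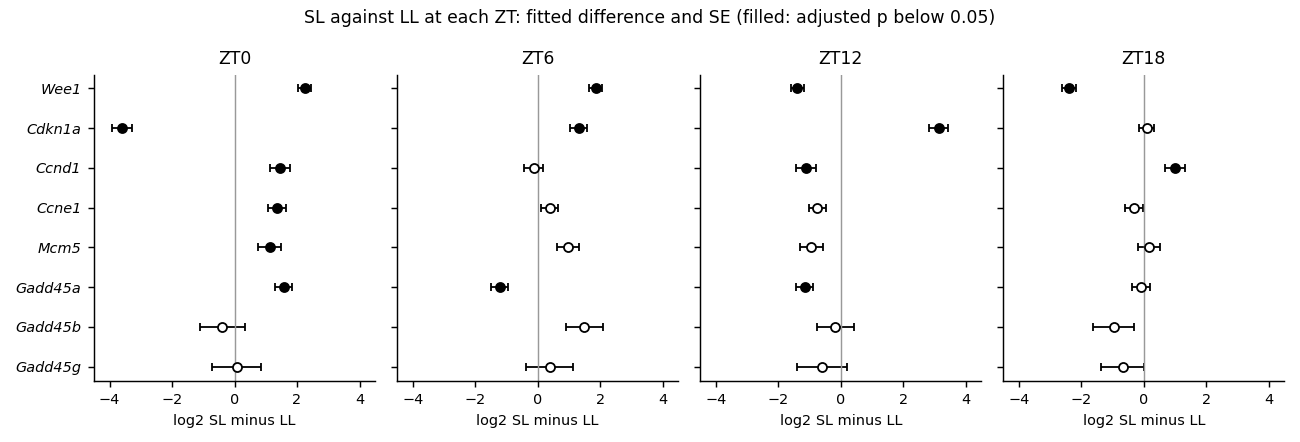
Fitted log2 difference, SL minus LL, of each gene at each ZT, with its SE; filled points have an adjusted p below 0.05. Wee1 runs from 2.24 at ZT0 to −2.40 at ZT18, while Cdkn1a is at −3.60 at ZT0 and 3.13 at ZT12.

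Averaged over the 4 times, no member passed as different in level. With edgeR 0 of 8 members and 0.00% of all genes were called for the mean of the 4 ZTs, and 0 members had an unadjusted p below 0.05 (730 genes did). The largest mean log2 difference among the members was 0.33 (SE 0.18) for Mcm5, and Wee1 was at 0.08 (SE 0.11) and Cdkn1a at 0.23 (SE 0.14). DESeq2 called 6 genes in this comparison and 0 members.

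Time of day was tested within each photoperiod. In SL it passed for 6 of 8 members (19.1% of all genes) and in LL for 5 of 8 (18.3% of all genes). Wee1 had an adjusted p of 5.03e-11 in SL and 6.04e-09 in LL, and Cdkn1a had 9.57e-09 in SL and 4.45e-10 in LL. Gadd45a (8.17e-06 in SL, 0.00348 in LL), Ccnd1 (0.00698 in SL, 0.00446 in LL) and Ccne1 (0.00637 in SL, 0.0195 in LL) passed in both too, so that 5 of 8 did, against 12.1% of all genes. Mcm5 passed in SL, with 0.034, and not in LL, with 0.129. With the compared groups only this was turned round for Mcm5, with 0.0825 in SL and 0.0412 in LL. With limma-voom the adjusted p was 0.167 for Mcm5 in SL and 0.0624 for Ccne1 in LL, and both calls were lost. Gadd45b (0.158 in SL, 0.633 in LL) and Gadd45g (0.444 in SL, 0.101 in LL) passed in neither. Gadd45g in LL did pass without a filter (adjusted p = 0.00693) and without the library that stood apart (adjusted p = 0.048). Variation with time of day thus passed in SL, LL or both for 6 of the 8 members, with Mcm5, Ccne1 in LL and Gadd45g near the line. Whether the clock gates these genes was not tested. All 5 skeletal muscle markers also varied with time of day in LL, where their sum was 0.73 to 70.3 CPM at ZT0, 0.549 to 18.1 CPM at ZT6, 0.644 to 1.35 CPM at ZT12 and 8.3 to 158 CPM at ZT18. Their part in the results for LL was not tested.

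The test of whether the SL minus LL difference varied with time passed for the same 6 members, against 32.7% of all genes. Its adjusted p was 2.07e-13 for Wee1, 1.49e-12 for Cdkn1a, 3.33e-06 for Gadd45a, 0.000111 for Ccnd1, 0.000639 for Ccne1 and 0.00579 for Mcm5. It was 0.112 for Gadd45b and 0.781 for Gadd45g. Of the 6 sinusoidal endothelial markers 3 passed it too, with sums of 245 to 376 CPM over all libraries, and their part was not tested. The difference in 24 h rhythm, which uses only the wave terms, also called these 6 (36.0% of all genes), with 0.0738 for Gadd45b and 0.613 for Gadd45g. Without the library that stood apart Gadd45b passed this test as well (adjusted p = 0.0391).

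A 24 h cosine wave put the peak of each of the 6 genes earlier in SL than in LL, by a shift of −10.3 to −9.08 h on the shorter way round the 24 h circle. The amplitude is the distance on the log2 scale from the middle of the wave to its peak. In SL the Wee1 peak fell at ZT 4.06 ± 0.28 h (SE) and in LL at 14.4 ± 0.36 h, which makes the shift −10.3 ± 0.46 h, with amplitudes of 1.6 in SL and 1.21 in LL. For Cdkn1a the SL peak was at 12.5 ± 0.34 h and the LL peak at 22.2 ± 0.29 h, which makes the shift −9.67 ± 0.45 h, with amplitudes of 1.63 in SL and 1.89 in LL. Wee1 therefore peaked before Cdkn1a within the day in both photoperiods, by several times their SE.

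The SL peak of Ccnd1 was at 23.9 ± 0.92 h and its LL peak at 9.15 ± 0.91 h, and Gadd45a had its SL peak at 23.6 ± 0.72 h and its LL peak at 9.03 ± 0.79 h, within their SE of each other. Ccne1 had its SL peak at 2.19 ± 0.89 h and its LL peak at 12.2 ± 1.1 h, and Mcm5 had them at 2.84 ± 1.4 h (SL) and 11.9 ± 1.6 h (LL), also within their SE. Shifts of these 4 genes ran from −9.08 ± 2.1 h (Mcm5) to −9.98 ± 1.4 h (Ccne1), and their amplitudes from 0.52 to 0.79 in SL and from 0.47 to 0.71 in LL. For comparison, the SL and LL peaks were at 13.2 h (SL) and 23.3 h (LL) for the clock activator Arntl, at 22.6 h (SL) and 8.34 h (LL) for the repressor Nr1d1 (REV-ERB alpha), and at 1.22 h (SL) and 10.5 h (LL) for the clock output Dbp. Of the 8 genes, Cdkn1a had the peaks nearest to those of Arntl, and Ccnd1 and Gadd45a those nearest to Nr1d1.

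**Figure D3:**
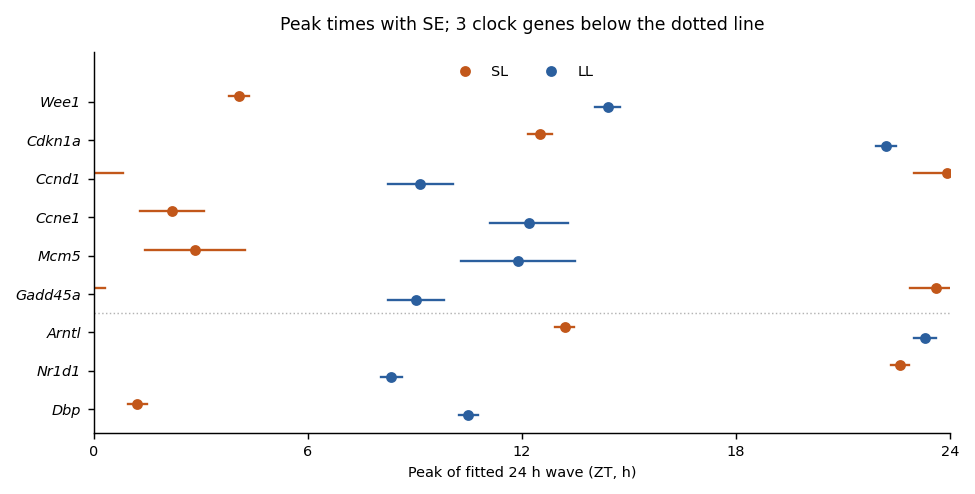
Peak of the fitted 24 h wave (ZT, h) with its SE for the 6 genes called and 3 clock genes, SL drawn above LL for each gene. Wee1 lies at 4.06 h (SL) and 14.4 h (LL), and Cdkn1a at 12.5 h (SL) and 22.2 h (LL).

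Sampling at 4 times leaves 1 further term, how far the log2 mean of ZT0 and ZT12 lies above the log2 mean of all 4 times, which is 0 for a pure 24 h wave. In SL it was 0.46 ± 0.08 for Wee1, −0.67 ± 0.1 for Cdkn1a and 0.41 ± 0.1 for Gadd45a, and in LL it was 0.1 ± 0.08, −0.21 ± 0.1 and 0.02 ± 0.1 for the same genes (SE). In SL the term was several times its SE for these genes, where Gadd45a had a single high time and Cdkn1a a single low time, both at ZT0. The term depends on where a peak falls between the sampling times, so a shift alone can change it. It therefore cannot show whether the shape of the rhythm differed between SL and LL. Waves of Gadd45b and Gadd45g were not well placed, with SE of 1.8 to 6.9 h on their peaks.

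Of the offsets that sampling every 6 h allows, 12 h is the nearest to these shifts, so SL was also set beside LL sampled 12 h later. Over the 4 pairs of groups at once, 2 of 8 members differed, against 0.560% of all genes. Of 19 core clock and clock output genes, 8 differed in the same test. The offset of 12 h is longer than the fitted shifts of Wee1 (−10.3 h) and Cdkn1a (−9.67 h), and the part of this in the calls was not tested. Cdkn1a had an adjusted p of 0.00457 and Wee1 one of 0.0449, and the call of Wee1 was lost with limma-voom (adjusted p = 0.15). Of the single pairs, SL at ZT18 minus LL at ZT6 called 1 of 8 members, Cdkn1a (0.0553% of all genes were called there). The other pairs called 0 members with edgeR, against 0.0346% of all genes for SL at ZT0 minus LL at ZT12, 0.443% for SL at ZT6 minus LL at ZT18 and 0.00692% for SL at ZT12 minus LL at ZT0. At an unadjusted p below 0.05 those 3 pairs held 0, 4 and 1 members in that order, and DESeq2 and the other alternatives called none wherever they gave a value. Cdkn1a averaged 19.5 ± 6.71 CPM in SL at ZT18 and 5.72 ± 2.39 CPM in LL at ZT6 (SD, n = 4 each), without overlap, a log2 difference of 1.73 (SE 0.25, adjusted p = 0.000806). For that pair Wee1 averaged 3.07 ± 0.365 CPM in SL and 6.27 ± 2.21 CPM in LL (log2 difference −0.97, SE 0.24, adjusted p = 0.169), and Gadd45a 3.35 ± 0.364 CPM in SL and 6.93 ± 1.79 CPM in LL (−1.04, SE 0.28, adjusted p = 0.261). The values of both genes did not overlap in this pair, where the share of all genes without overlap was not counted. Between SL and LL at the same ZT that share was 14.4% to 20.4%. Neither the Wee1 nor the Gadd45a difference passed with edgeR for SL at ZT18 minus LL at ZT6. Wee1 passed there with DESeq2 (adjusted p = 0.0157), without a filter (0.0131) and without the library that stood apart (0.0291), and Gadd45a without a filter (0.0367).

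**Figure D4:**
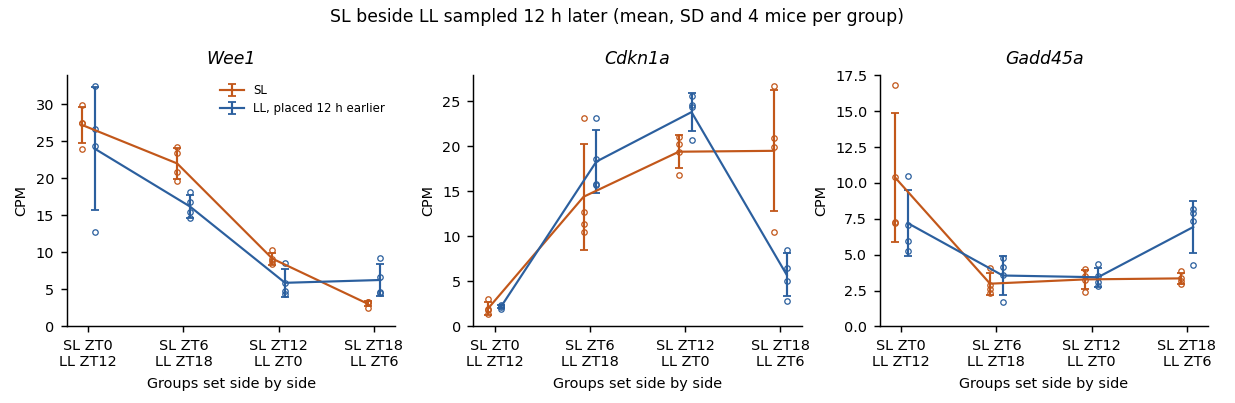
CPM of Wee1, Cdkn1a and Gadd45a in SL (orange) beside LL (blue) sampled 12 h later; points are mice, lines and bars are means and SD (n = 4). The pair at the right, SL ZT18 and LL ZT6, is where Cdkn1a averages 19.5 CPM in SL and 5.72 CPM in LL.

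Mice of the same group that had more Mcm5 also had more Ccnd1 and Ccne1. Across 32 mice, with each value taken as the deviation of log2 CPM from its group mean, Ccnd1 and Mcm5 had a Pearson r of 0.736 and a Spearman rho of 0.772. The permutation p, with mice redrawn within groups, was 1e-05 for both, the smallest that the draws can give (adjusted over 28 pairs, 0.00028 for both). Without the 2 mice farthest from the median of Ccnd1, r was 0.784. Ccne1 and Mcm5 had r of 0.455 (permutation p = 0.0014, adjusted 0.02) and rho of 0.544 (permutation p = 0.0026, adjusted 0.036), and r of 0.525 without the 2 farthest mice. Ccnd1 and Ccne1 themselves did not pass, with r of 0.316 (permutation p = 0.12, adjusted 0.37) and rho of 0.397 (permutation p = 0.048, adjusted 0.22).

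For Wee1 and Gadd45g r was −0.457 (permutation p = 0.0051, adjusted 0.048) and rho −0.451 (permutation p = 0.017, adjusted 0.12), so only r passed, and r was −0.363 without the 2 farthest mice. The other 25 pairs passed in neither measure. Among them were the pairs of Gadd45 paralogs, with r of 0.356 for Gadd45a and Gadd45b, −0.341 for Gadd45a and Gadd45g and −0.262 for Gadd45b and Gadd45g.

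**Figure D5:**
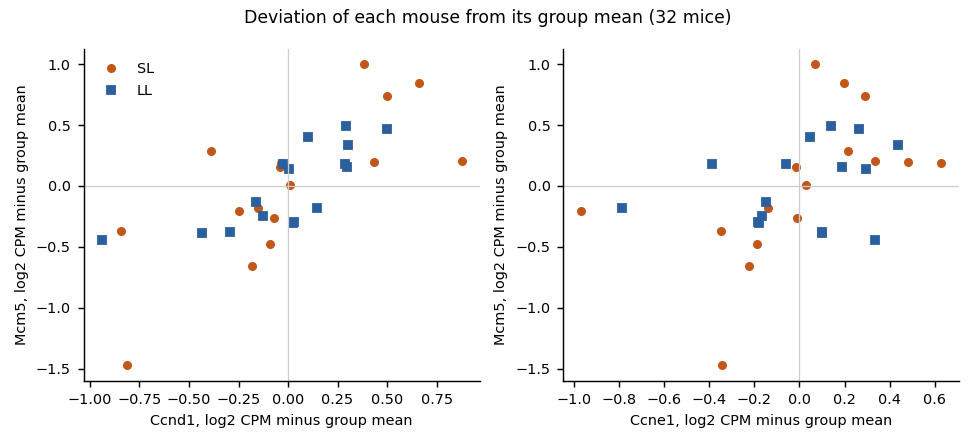
Deviation of Mcm5 from its group mean (log2 CPM) against that of Ccnd1 (left) and Ccne1 (right), 1 point per mouse, SL as circles and LL as squares. Mice with more Ccnd1 than their group had more Mcm5, with r of 0.736.

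The genes most like each member over the 32 libraries are given as likeness only, by Pearson r of log2 CPM among 11494 genes, over samples that share photoperiod and time. Wee1 was most like Lrp4 (r 0.959), Sord (r 0.936) and Usp2 (r 0.932), and Cdkn1a most like Chka (r 0.92), Arl4a (r 0.919) and Fpgs (r 0.912). Mcm5 was most like the genes of other helicase subunits, Mcm6 (r 0.877) and Mcm2 (r 0.823), and then Micu2 (r 0.779), which was also nearest to Ccnd1 (r 0.777). Ccne1 was most like Pcsk4 (r 0.73), Gmnn (r 0.729) and Slc5a6 (r 0.726), where Gmnn codes for geminin, an inhibitor of origin licensing. Gadd45a was most like F3 (r 0.844), Gadd45b like Grasp (r 0.744) and Jun (r 0.652), and Gadd45g like Foxq1 (r 0.787).

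Other genes of the same pathways came from lists that leave out the 8 members. These lists too were chosen with earlier results of these data known. Among G1 cyclins, CDKs and their inhibitors, 7 of 21 tested genes had an SL minus LL difference that varied with time, against 32.7% of all genes. Ccne2, which codes for the other E-type cyclin, had at ZT6 a mean of 3.46 ± 1.05 CPM in SL mice and 1.54 ± 0.405 CPM in LL mice (log2 difference 1.22, adjusted p = 0.000181), a time at which its paralog Ccne1 did not pass. The peaks of Ccne2 were at 4.62 h (SL) and 16 h (LL), with an interaction adjusted p of 4.63e-06, and those of Cdk2, the kinase partner of both, were at 23.8 h (SL) and 9.86 h (LL), with 0.00026. E2f2, which codes for an E2F transcription factor, was lower in SL at ZT6 (log2 difference −1.13, adjusted p = 0.00539).

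Among genes of origin licensing and DNA synthesis, which Mcm5 belongs with, 10 of 25 passed the same test, against the same 32.7%. Time of day passed for 12 of the 25 in SL and for 3 in LL, against 19.1% and 18.3% of all genes. At ZT12, 1 was higher and 5 were lower in SL, where 6.05% of all genes were higher and 6.40% lower, with a list median log2 difference of −0.32, against −0.01 for all genes. Tk1, the thymidine kinase that feeds DNA synthesis, averaged at ZT6 51.1 ± 10.1 CPM in SL mice and 17.4 ± 2.09 CPM in LL mice, and at ZT12 27.8 ± 5.25 CPM in SL mice and 54.5 ± 10.7 CPM in LL mice (SD, n = 4 each). Mcm10, which codes for a replication initiation factor, had its peaks at 0.88 h (SL) and 12.3 h (LL), and Gmnn at 1.59 h (SL) and 11.6 h (LL), beside 2.84 h (SL) and 11.9 h (LL) for Mcm5.

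Genes of G2 and mitosis, the step that WEE1 restrains, passed it in 2 of 17 cases, against 32.7% of all genes. These were Birc5 (adjusted p = 0.00758), which codes for survivin, and Cdc20 (adjusted p = 0.0378), a coactivator of the anaphase-promoting complex. Cdc25a, which codes for a phosphatase that acts against WEE1, did not pass (adjusted p = 0.177). Mean levels were low, at 1.75 CPM for Birc5, 1.13 CPM for Cdc20 and 4.63 CPM for Cdc25a. The part of low levels in the count for this list was not tested. Of the other p53 targets 5 of 20 passed the same test, against 32.7% of all genes. Among them were Plk3 (adjusted p = 2.16e-05), Fas (adjusted p = 0.00037) and Rrm2b (adjusted p = 0.00871). Fas, a death receptor gene, had its peaks at 11.9 h (SL) and 21.6 h (LL), beside 12.5 h (SL) and 22.2 h (LL) for Cdkn1a, while those of Plk3 were at 4.06 h (SL) and 13.4 h (LL).

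Among checkpoint and stress kinases 5 of 15 passed, close to the 32.7% of all genes. In SL 4 of the 15 were higher at ZT6 (6.90% of all genes) and 4 lower at ZT18 (4.39% of all genes). Map2k6, a kinase gene of the p38 pathway, averaged at ZT0 9.38 ± 0.679 CPM in SL mice and 4.06 ± 0.366 CPM in LL mice, and at ZT12 3.38 ± 0.377 CPM in SL mice and 11.1 ± 2.37 CPM in LL mice. Of 19 core clock and clock output genes 18 passed, with Cry1, which codes for a clock repressor, and Tef, which codes for a clock output factor, at an adjusted p of 1.87e-15.

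Genes on the opposite strand overlap 4 members. The kit marks strand, but the strand setting of the counting is not stated in the sources used here, so reads of such pairs may not be fully told apart. Gadd45a shares exon bases with E230016M11Rik (1466 reads over all libraries), which had its peaks at 21.2 h (SL) and 8.04 h (LL) (interaction adjusted p = 0.00266), near Gadd45a itself. Ccnd1 shares exon bases with a gene on the other strand, LTO1 in the annotation (8772 reads), which had its peaks at 23.7 h (SL) and 9.89 h (LL) with amplitudes of 0.21 in SL and 0.12 in LL. The overlaps of Wee1 with 1600010M07Rik (50 reads) and of Cdkn1a with AC167363.2 (81 reads) involve few reads beside the 7253 of Wee1 and the 6564 of Cdkn1a.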

How the data were processed

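A stranded mRNA kit was used for the 32 livers, per the labels' protocols. Groups came from each library's own labels. The submitters' processing notes name bcl2fastq 2.20.0, STAR 2.7.2b, featureCounts 1.6.2 and GRCm38 (mm10); the sources used here do not give the annotation, strand setting or multimapping. Raw whole-number counts per gene are the main table the authors deposited. A second table that the authors deposited holds log2 values of 13432 genes, served as an alternative and lay within 0.0212 of the log2 CPM used here for the 8 members. Gene bounds came from GENCODE M21, which holds 55144 of the identifiers.

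Counts were scaled by trimmed means of M values and genes filtered with filterByExpr by group. In 1 fit of 8 group means without covariates, 14456 genes were tested with edgeR 4.0.16 (quasi-likelihood F-test, R 4.3.3), with Benjamini-Hochberg adjustment over all tested genes and a threshold of 0.05. A comparison of 12 h offset, 24 h waves fitted to log2 CPM (prior count 2), and permutations within groups (100000 draws, two-sided) were added. With samples 6 h apart, a wave of another period cannot be told apart from one of 24 h. CPM uses the scaled library sizes, and RPKM divides by merged exon length. Total counts per library had a median of 15665632.5, and no 2 libraries of a group agreed within counting noise (lowest chi-square per degree of freedom 5.68). Scripts were tested on simulated data.

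The 8 members, the 6 lists of other genes, the 10 marker lists and the tests were chosen with earlier results of these data known. The text names the 8 members, the 3 genes most like each (mean CPM of at least 1), the 3 genes of each list with the smallest interaction p, and Arntl, Nr1d1 and Dbp. For 1 of the lists, 1 of these genes is not reported here. Where likeness values of fewer genes are printed, they are the highest of the 3. Alternatives were other scalings and filters, DESeq2 1.42.0, limma 3.58.1 on voom values or the authors' values, fits of the compared groups only, a replicate block and leaving out each library.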

Additional observations from a re-analysis of the deposited data

Results flagged for a closer look

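Gadd45g had a library far from the others in 2 groups: replicate 1 of SL at ZT0 stood at 12.5 CPM, with the other mice between 0.472 and 1.98 CPM, and replicate 2 of LL at ZT18 at 33.1 CPM, with the others between 5.25 and 8.83 CPM. These 2 came from 64 sets of 4 libraries checked, where chance marks about 1 in 20. The difference between SL and LL itself differed between the 4 times by edgeR's test in 6 genes, with a Benjamini-Hochberg adjusted p of 2.07e-13 for Wee1, 1.49e-12 for Cdkn1a, 0.000111 for Ccnd1, 0.000639 for Ccne1, 0.00579 for Mcm5 and 3.33e-06 for Gadd45a.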

How the results depend on the processing

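No called difference of a member changed direction under any alternative that was run, 20 differences that were not called (log2 size up to 0.67 in the fit reported) changed sign in 62 of 2893 values, and peak times and amplitudes moved by less than the SD between replicates in all of theirs. Counts of members called changed as follows: without a filter 5 members were called at ZT6; at ZT18 it was 1 with scaling that leaves out abundant genes, with limma-voom and with the authors' log2 values; and for SL against LL sampled 12 h later it was 1 with that scaling and with limma-voom. Genes called at ZT12 numbered 1799 in the fit over all groups and 723 with the compared groups only. For time of day in LL they numbered 2650 and 1655. Fits with fewer libraries have fewer degrees of freedom at every time, and at ZT0 and ZT6 the genes called fell far less. For the mean of the 4 ZTs, 6 genes were called with DESeq2 and 9 without a filter, and for the 12 h offset 224 and 249 with those settings, against 81. Leaving out 1 library gave 1 to 2 members at ZT18, 1 to 2 members for the offset (1 in 26 of 32 cases, where Wee1 was lost), 0 to 3 genes for the mean, and 51 to 140 genes for the offset, the last without LL replicate 3 at ZT12. Without LL replicate 3 at ZT12, many more genes were also called at ZT0 and ZT6, comparisons that do not hold that library. The shares of all genes printed for those times, 11% and 15.3%, are from the fit with it. The causes were not tested.

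Beside Wee1 in the offset, the calls lost most often were Mcm5 at ZT0 (in 13 of the leave-one-out fits, and with an adjusted p of 0.0521 to 0.174 under 5 other settings) and Ccnd1 at ZT18 (in 16 of the leave-one-out fits). Time of day of Mcm5 in SL was lost in 7 of these fits, and that of Ccne1 in LL without replicate 2, 3 or 4 of LL at ZT12. Gadd45b passed at ZT6 (adjusted p = 0.0477) and in the interaction (adjusted p = 0.0482) without a filter, and was not tested under the stricter one. Mcm5 at ZT6 was gained in 10 settings, among them DESeq2 and both filters, Mcm5 at ZT12 in 3, Mcm5 time of day in LL in 2 and Ccne1 at ZT12 in 2. The reads behind a value were fewest for Gadd45b, with 1 to 52 in a library.

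Replicate numbers did not pair the mice: same-numbered libraries had correlations of −0.263 to 0.243 over 112 pairs, and 9 of 32 libraries correlated best with their own number. With the replicate block 1 member was called at ZT18, since Ccnd1 had an adjusted p of 0.0529, and Mcm5 was lost at ZT0 (0.0663) and for time of day in SL (0.0582).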
